A study of Mus musculus with 8 samples.

Results

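The tumour necrosis factor (TNF) superfamily was examined in CD4+ T cells that carried 1 of 2 retrogenic T cell receptors, named ANT and SAS. Its members were taken by symbol from the deposited count table: every gene whose symbol begins with Tnfrsf or Tnfsf, together with Cd27, Cd40, Cd40lg, Cd70, Fas, Fasl, Tnf, Lta, Ltb, Ltbr and Ngfr. This gave 43 genes of the 39056 in the table, 25 receptors and 18 ligands. Cells of both clones were sorted from spleen pooled with lymph nodes. The strain was C57BL/6J and the transduced bone marrow had the genotype CD4-Cre TCRβtg Tcra-/-, so all libraries share the CD4-Cre and TCR beta transgenes and lack the endogenous TCR alpha gene. They differ in the TCR alpha chain delivered by retrovirus, ANT TCRα or SAS TCRα. Ages, the promoter of the construct and the number of mice per library are not in the sources used here. Each clone had 4 libraries, ANT replicates 1, 3, 4 and 5 and SAS replicates 1, 2, 3 and 6, and values per library are given in those orders. The labels do not say that each library came from its own animal, so the p-values here reflect only spread among these 8 libraries, which may be technical.

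TNF superfamily ligands are membrane-bound or secreted proteins that act as trimers, and their receptors carry cysteine-rich repeats outside the cell. Receptors without a death domain bind TRAF adaptors and lead to NF-kB and kinase signalling, receptors with a death domain can also assemble caspase-activating complexes, and decoy receptors bind ligand without passing on a full signal. On CD4+ T cells, OX40, 4-1BB, GITR, CD27, CD30 and TNFR2 are known as costimulatory receptors, and CD40 ligand is the signal by which helper T cells engage B cells.

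Of the 30 members that passed the low-count filter, 22 differed between the clones, 13 higher in SAS and 9 higher in ANT. Among all 12619 genes tested, 37.4% were called by the same rule, an adjusted p under 0.05 in edgeR's quasi-likelihood test, 19.8% as higher in SAS and 17.7% as higher in ANT. Among members called and at least 2-fold apart, 11 were higher in SAS, against 10.7% of all genes tested, and 3 higher in ANT, against 5.25%. The receptor gene Tnfrsf9 and the ligand genes Tnfsf4, Tnfsf14 and Tnfsf11 were near silent in ANT and much higher in SAS, whereas no member higher in ANT exceeded 2.19-fold. Filtering matters to these counts: Tnfrsf21, Tnfrsf8, Tnfsf14 and Tnfsf4 passed through their SAS libraries alone. All 4 SAS libraries reached the filter level of about 10 counts for them, and not all ANT libraries did. That favoured a difference but did not fix one. The ANT libraries had 13, 7, 14 and 12 counts of Tnfsf14, and 6, 5, 10 and 16 of Tnfrsf21. Of the 24 members that reached the filter in both clones, 17 (70.8%) were called, 8 higher in SAS and 9 higher in ANT, and at least 2-fold apart were 6 and 3, with a median log2 ratio of SAS to ANT (log2 SAS/ANT) of 0.19. The remaining 2 tested members, Tnfrsf13c and Tnfrsf19, passed on libraries of both clones, with neither clone reaching the filter in all of its libraries. Fewer cells that carry a transcript and less transcript per cell cannot be told apart in such bulk samples.

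Promoter sequence was available from RefSeq (GRCm38.p6, the build of mm10) for 33 of the 43 members, in 37 windows of 250 bases before to 50 bases after a transcription start. The stretches before the start are shown for the 5 genes with a window and a log2 SAS/ANT above 4, because their differences were the largest among members with a window. Capitals mark matches, on either strand, to the NFAT core (TGGAAA), the AP-1 motif (TGANTCA) or the NF-kB consensus, with no overlap between different motifs in these stretches. The plus strand is given for Tnfrsf9 (chr4:150919905-150920154, the first RefSeq start) and Tnfrsf21 (chr17:43016305-43016554), and the minus strand for Tnfsf11 (chr14:78308044-78308293), Tnfsf14 (chr17:57194182-57194431) and Tnfrsf8 (chr4:145315165-145315414). The last line is a 30-base site before another RefSeq start of Tnfrsf9 (chr4:150927946-150927975, plus strand). The 250 bases before that start overlap 1 annotated exon, whose gene was not recorded.
Tnfrsf9: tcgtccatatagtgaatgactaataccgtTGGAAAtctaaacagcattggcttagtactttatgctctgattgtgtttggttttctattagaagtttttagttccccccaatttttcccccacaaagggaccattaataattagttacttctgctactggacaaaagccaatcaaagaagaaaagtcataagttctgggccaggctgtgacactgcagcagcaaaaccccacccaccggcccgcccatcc
Tnfrsf21: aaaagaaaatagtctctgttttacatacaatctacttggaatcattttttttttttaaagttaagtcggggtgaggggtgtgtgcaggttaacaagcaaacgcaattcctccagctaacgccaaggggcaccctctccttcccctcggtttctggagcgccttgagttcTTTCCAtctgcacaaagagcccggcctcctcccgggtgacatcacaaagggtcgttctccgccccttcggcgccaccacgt
Tnfsf11: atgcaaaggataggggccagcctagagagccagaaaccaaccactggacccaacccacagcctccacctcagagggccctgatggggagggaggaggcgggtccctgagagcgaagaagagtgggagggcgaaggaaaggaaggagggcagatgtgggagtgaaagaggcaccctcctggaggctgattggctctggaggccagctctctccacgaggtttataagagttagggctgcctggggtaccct
Tnfsf14: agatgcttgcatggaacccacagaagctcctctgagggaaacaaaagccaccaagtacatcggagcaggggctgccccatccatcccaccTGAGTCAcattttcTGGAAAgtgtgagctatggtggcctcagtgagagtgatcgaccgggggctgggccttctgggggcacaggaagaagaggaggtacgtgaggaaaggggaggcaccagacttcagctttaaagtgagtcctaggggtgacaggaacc
Tnfrsf8: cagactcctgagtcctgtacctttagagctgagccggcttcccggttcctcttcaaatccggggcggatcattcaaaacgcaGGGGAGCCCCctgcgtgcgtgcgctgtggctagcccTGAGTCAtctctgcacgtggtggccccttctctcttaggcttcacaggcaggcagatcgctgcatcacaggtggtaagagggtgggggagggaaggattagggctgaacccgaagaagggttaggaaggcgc
Tnfrsf9 site: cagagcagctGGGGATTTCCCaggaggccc
The Tnfrsf9 site holds overlapping NF-kB matches at 43 and 42 bases before the start, and an AP-1 match follows at 15 bases before it. The first Tnfrsf9 stretch has an NFAT match at 221 bases before its start and the Tnfrsf21 stretch one at 81 bases. The Tnfsf14 stretch has an AP-1 and an NFAT match, at 160 and 146 bases before the start, and the Tnfrsf8 stretch has an NF-kB and an AP-1 match, at 168 and 132 bases before its own start. The Tnfsf11 stretch has none of these motifs. Over the windows, an NFAT match was found for 6 of the 11 genes higher in SAS that had a window and for 1 of the 6 higher in ANT, against 21.4% of all 32851 windows of the same length. These counts and those below are of genes, while the shares are of windows, and the 11 genes had 12 windows and the 6 had 7. Those genes were Tnfrsf4, Tnfrsf9, Tnfrsf13c, Tnfrsf21, Tnf and Tnfsf14 on the SAS side and Tnfsf10 on the ANT side, and 0 of the 7 tested genes that were not called had one. Of the 6 on the SAS side, Tnfrsf21 and Tnfsf14 passed the filter through their SAS libraries alone. Tnfrsf13c and Tnf each lost their call in 5 of 8 fits that left out a library. Whether a motif goes with a direction was not tested. AP-1 was found for 3 of the 11 and 0 of the 6 genes (7.81% of all windows), and NF-kB for 2 of the 11 and 1 of the 6 (4.51% of all windows). The ANT-side gene with an NF-kB match was Ltb, at 87 bases before its start. The NR4A motif AAAGGTCA was in the windows of 0 of these genes (1.51% of all windows), and the EGR motif GCGNGGGCG in those of Tnfrsf25 and Tnfrsf12a (5.55% of all windows). A match is a run of letters and does not show binding.

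The first receptors described are 7 costimulatory receptors without a death domain, all of which were tested. In SAS 5 of them were higher and in ANT 0, against 19.8% and 17.7% of all genes, while Tnfrsf14 and Tnfrsf18 were not called. One of the 5, Tnfrsf8, had passed the filter through its SAS libraries alone. Tnfrsf25, which also costimulates T cells but has a death domain, is described with the death-domain receptors and was higher in ANT. The summed level of the regulatory T cell markers Foxp3, Il2ra, Ikzf2 and Ctla4 moved with them, at 17.8 to 21.8 counts per 1e6 library counts (CPM) in ANT and 990 to 1190 CPM in SAS. All 4 of those markers were higher in SAS, most of the sum was Ikzf2, and Foxp3 was at 0.585 and 1.45 CPM. Their part in the receptor differences was not tested.

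Tnfrsf9 (ENSMUSG00000028965.13, mm10 chr4:150914562-150946102, plus strand) encodes 4-1BB, a receptor that activated T cells put on their surface. Its level was 1.66, 2.09, 1.26 and 1.38 CPM in ANT and 471, 302, 392 and 444 CPM in SAS. The lowest SAS library thus lay over 100 times above the highest ANT library, and the groups did not overlap. The log2 SAS/ANT ratio was 7.97 (SE 0.23), a 252-fold difference, with an adjusted p of 7.94e-09. The gene body lies across Camta1 on the other strand, which had 1300 counts in all of ANT and 1681 in SAS against 180 and 49280 for Tnfrsf9.

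Tnfrsf1b (chr4:145213463-145246870, minus strand), the gene of TNFR2, was at 65.4, 65.6, 55.5 and 53.2 CPM in ANT and at 222, 194, 166 and 180 CPM in SAS. All SAS libraries stood well above all ANT libraries (log2 SAS/ANT 1.67, SE 0.12, adjusted p 4.13e-06). Tnfrsf4 (chr4:156013843-156016612, plus strand), which encodes OX40, was less abundant, with 7.04, 6.43, 8.11 and 7.86 CPM in ANT and 19.4, 14.3, 14.2 and 11.3 CPM in SAS. Its groups did not overlap either (log2 SAS/ANT 1.01, SE 0.17, adjusted p 0.00120). Tnfrsf8, the gene of CD30, was scarce in both clones, with 60 counts in the SAS libraries together and 3 in ANT, all of them in replicate 1. SAS exceeded ANT 18.6-fold, and the 95% interval, which covers counting error only, ran from 6.07 to 92.7. The fitted log2 SAS/ANT ratio of Tnfrsf8 was 4.02 (adjusted p 0.00165), and 6.87 without ANT replicate 1.

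Cd27, which encodes a receptor of naive and memory T cells, differed little. It was at 264, 288, 283 and 307 CPM in ANT and 344, 335, 328 and 374 CPM in SAS. The groups did not overlap, but the log2 SAS/ANT ratio was only 0.27 (SE 0.09, adjusted p 0.0407). That call held in 1 of 8 fits that left out a library, the one without ANT replicate 5, and adjusted p ran from 0.0597 to 0.127 in the other 7. Part of Cd27 overlaps Vamp1 on the other strand, and the strand setting of the counting is not known. Tnfrsf14, the gene of HVEM, was at 50.3, 58.8, 57.1 and 64.0 CPM in ANT and 56.8, 63.3, 55.2 and 57.1 CPM in SAS, with overlapping groups (log2 SAS/ANT 0.01, SE 0.10, adjusted p 0.929).

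Tnfrsf18, which encodes GITR, lies 9.55 kb from Tnfrsf4 on chromosome 4 and was not called. Its level was 40.6, 43.0, 24.7 and 19.2 CPM in ANT and 75.2, 39.8, 39.2 and 52.2 CPM in SAS. ANT replicates 1 and 3 reached the range of the SAS libraries, and ANT replicates 4 and 5 stayed below it. The log2 SAS/ANT ratio of Tnfrsf18 was 0.70 (SE 0.29, adjusted p 0.0809), and it was called without ANT replicate 3 (0.87, adjusted p 0.0471) and without ANT replicates 1 and 3 (1.23, adjusted p 0.0193), and also by DESeq2 (adjusted p 0.0425).

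**Figure D1:**
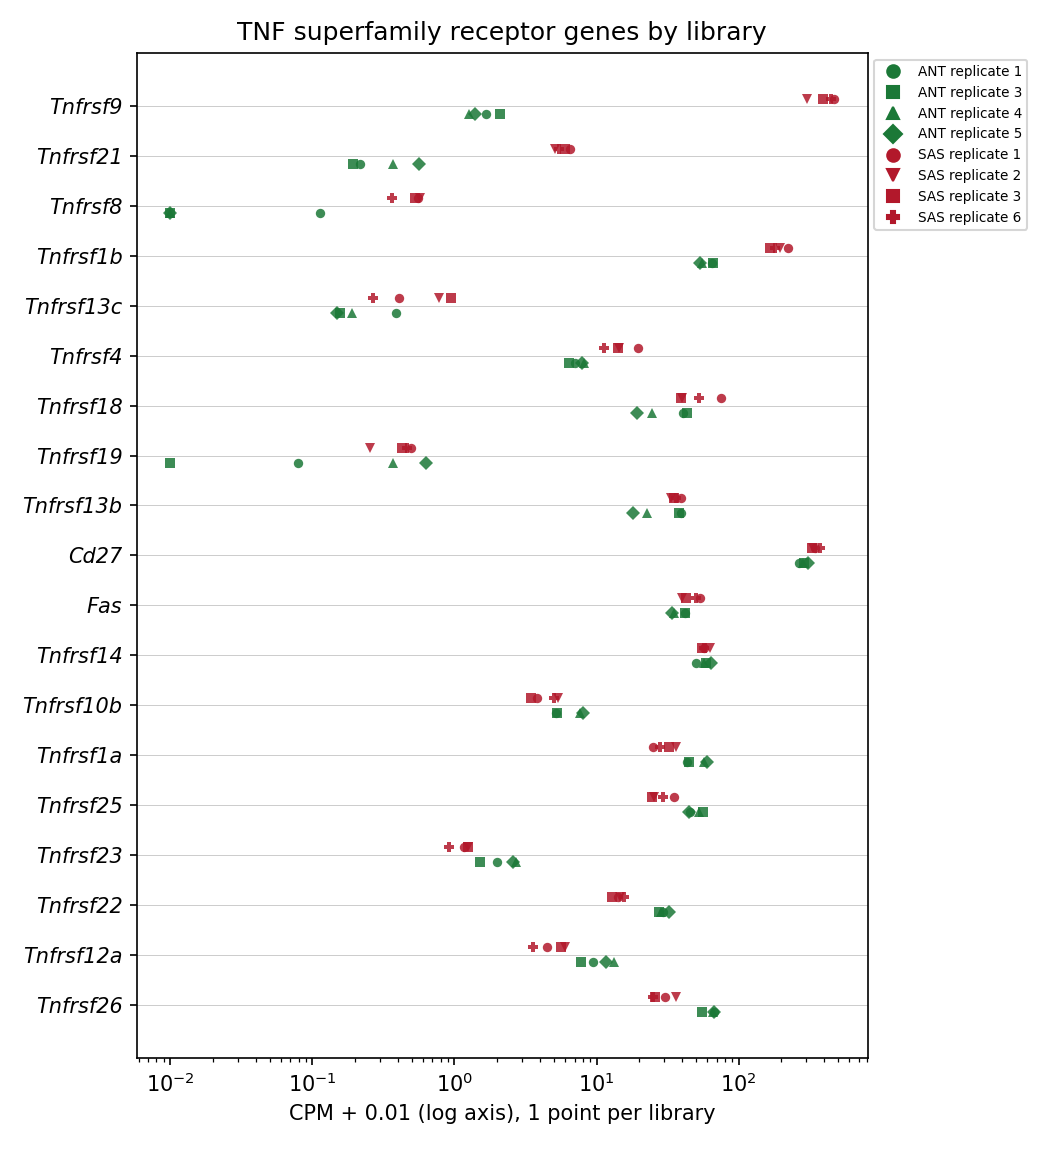
CPM of the 19 receptor genes that passed the filter, 1 point per library, ANT in green and SAS in red, on a log axis after adding 0.01, ordered by log2 fold change. Tnfrsf9 stands apart at 302 to 471 CPM in SAS and 1.26 to 2.09 CPM in ANT, while the lower rows, from Tnfrsf1a to Tnfrsf26, lie further right in ANT.

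Death-domain receptors went in different directions. Of 6, Ngfr was not tested, Tnfrsf21 was higher in SAS, Tnfrsf1a and Tnfrsf25 were higher in ANT, and Fas and Tnfrsf10b were not called. Tnfrsf21 (chr17:43016555-43089189, plus strand), the gene of DR6, was at 0.207, 0.184, 0.360 and 0.552 CPM in ANT and 6.49, 5.08, 5.94 and 5.43 CPM in SAS. Its SAS libraries were close to each other and over 9 times above the highest ANT library. The log2 SAS/ANT ratio of Tnfrsf21 was 4.12 (SE 0.33, adjusted p 6.37e-06), and 4.82 without ANT replicates 4 and 5. Tnfrsf1a, which encodes TNFR1, the main receptor of soluble TNF, was at 43.2, 44.5, 57.1 and 59.7 CPM in ANT and at 24.9, 36.4, 32.5 and 28.0 CPM in SAS. Every ANT library was above every SAS library (log2 SAS/ANT −0.75, SE 0.15, adjusted p 0.00334), the opposite direction to Tnfrsf1b. Tnfrsf25, which encodes DR3, a receptor that costimulates T cells, was at 45.3, 56.4, 52.7 and 44.7 CPM in ANT and at 34.8, 25.4, 24.7 and 29.1 CPM in SAS, also without overlap (log2 SAS/ANT −0.80, SE 0.14, adjusted p 0.00103).

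Fas, the death receptor that limits activated lymphocytes, was at 42.1, 42.1, 35.2 and 34.1 CPM in ANT and at 53.3, 39.8, 42.3 and 49.9 CPM in SAS. SAS replicate 2 fell within the ANT range, and the difference did not pass the test (log2 SAS/ANT 0.27, SE 0.13, adjusted p 0.120). It passed without ANT replicates 1 and 3 (0.42, adjusted p 0.0415) and with scaling by library size only (0.37, adjusted p 0.0471). Tnfrsf10b, the TRAIL receptor of the mouse, averaged 6.53 ± 1.51 CPM in ANT against 4.41 ± 0.942 CPM in SAS (SD, n = 4), with a log2 SAS/ANT ratio of −0.57 and an adjusted p of 0.0663. It was called without SAS replicate 2 (−0.68, adjusted p 0.04999), without ANT replicates 1 and 3 (−0.83, adjusted p 0.0164) and by DESeq2 (adjusted p 0.0384).

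Decoy receptors of the chromosome 7 cluster were higher in ANT. Tnfrsf26, Tnfrsf22 and Tnfrsf23 lie in a row, with 6.08 kb and 16.1 kb between them, and all 3 were called in that direction. Tnfrsf26 was the most abundant, at 67.5, 55.4, 65.9 and 67.3 CPM in ANT and 30.2, 36.3, 25.6 and 24.8 CPM in SAS (log2 SAS/ANT −1.13, SE 0.14, adjusted p 0.000119). Tnfrsf22, a TRAIL decoy, was at 29.5, 27.7, 28.3 and 32.3 CPM in ANT and at 14.2, 14.6, 12.8 and 15.5 CPM in SAS (log2 SAS/ANT −1.04, SE 0.11, adjusted p 4.24e-05). Their libraries fell into separate ranges by clone. Tnfrsf23, also a TRAIL decoy, was at 1.97, 1.51, 2.70 and 2.59 CPM in ANT and 1.16, 1.23, 1.24 and 0.899 CPM in SAS, again with no overlap. Its log2 SAS/ANT ratio of −0.95 (SE 0.26, adjusted p 0.0161) went to −0.64 without ANT replicates 4 and 5, which ended the call (adjusted p 0.139). Tnfrsf22 and Tnfrsf23 are similar in sequence: 17.3% of the 50-base words in Tnfrsf22 transcripts also occur in Tnfrsf23, and how such shared reads were counted is not known. Tnfrsf11b, the secreted decoy of RANK ligand, had 1 count in ANT and 0 in SAS.

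Receptors best known from other cell types were scarce or absent, with exceptions. Cd40, the receptor of CD40 ligand on B cells and dendritic cells, had 1 count in all of ANT and 2 in all of SAS. Ltbr, the stromal receptor of lymphotoxin, had 6 and 9 counts, Ngfr had 1 and 1, Tnfrsf11a (RANK) had 8 and 21, and Tnfrsf17 (BCMA) had 0 and 5. All SAS counts of Cd40 and 4 of the 5 of Tnfrsf17 were in SAS replicate 2. None of these genes passed the filter. The B cell markers Ms4a1 and Pax5 had 17 and 25 counts in ANT and 11 and 11 in SAS, whereas Cd22 had 19 in ANT and 92 in SAS (log2 SAS/ANT 2.19, adjusted p 0.0710). Of the 12 B cell markers, 0 were at 0 counts, 5 were tested and 1, Ighm, was called, higher in ANT. Their summed level was 671 to 698 CPM in ANT and 132 to 224 CPM in SAS, nearly all of it from Ighm, at 665 and 150 CPM, followed by Igkc and Cd79a.

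Tnfrsf13b, which encodes TACI, a receptor for BAFF and APRIL, was nonetheless well measured, at 39.0, 38.3, 22.5 and 18.1 CPM in ANT and 39.1, 33.4, 35.2 and 36.1 CPM in SAS. ANT replicates 1 and 3 matched the SAS level and ANT replicates 4 and 5 lay below it. The difference of Tnfrsf13b did not pass the test (log2 SAS/ANT 0.29, SE 0.23, adjusted p 0.354). It became 0.82 (adjusted p 0.00107) without ANT replicates 1 and 3, and turned to −0.13 (adjusted p 0.348) without ANT replicates 4 and 5. Tnfrsf13c, the BAFF receptor, had 24 counts in ANT and 70 in SAS, at 0.379, 0.147, 0.180 and 0.138 CPM against 0.396, 0.771, 0.932 and 0.257 CPM, and its groups overlapped. Its counts in the SAS libraries were 13, 22, 27 and 8, and those of the B cell marker Cd22 were 11, 39, 35 and 7, whose part in the difference was not tested. Tnfrsf13c was called as higher in SAS (log2 SAS/ANT 1.45, SE 0.50, adjusted p 0.0442), but not by DESeq2 (0.0539) or limma-voom (0.0646). That call was also lost in 5 of 8 fits that left out 1 library (ANT replicates 3, 4 or 5, or SAS replicates 2 or 3), with adjusted p of 0.0958 to 0.132.

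Tnfrsf12a, which encodes Fn14, the receptor of TWEAK, was higher in ANT at 9.48, 7.75, 13.3 and 11.7 CPM, against 4.45, 6.00, 5.59 and 3.57 CPM in SAS. No libraries overlapped (log2 SAS/ANT −1.11, SE 0.22, adjusted p 0.00259). Tnfrsf19, known as TROY, was near the filter, at 0.262 ± 0.285 CPM in ANT against 0.399 ± 0.107 CPM in SAS (SD, n = 4), and was not called (log2 SAS/ANT 0.59, SE 0.74, adjusted p 0.565). ANT replicate 3 had 0 counts of it and ANT replicate 5 had 18. Its log2 SAS/ANT ratio was 3.33 without ANT replicates 4 and 5 (adjusted p 0.0118) and −0.29 without ANT replicates 1 and 3 (adjusted p 0.661).

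**Figure D2:**
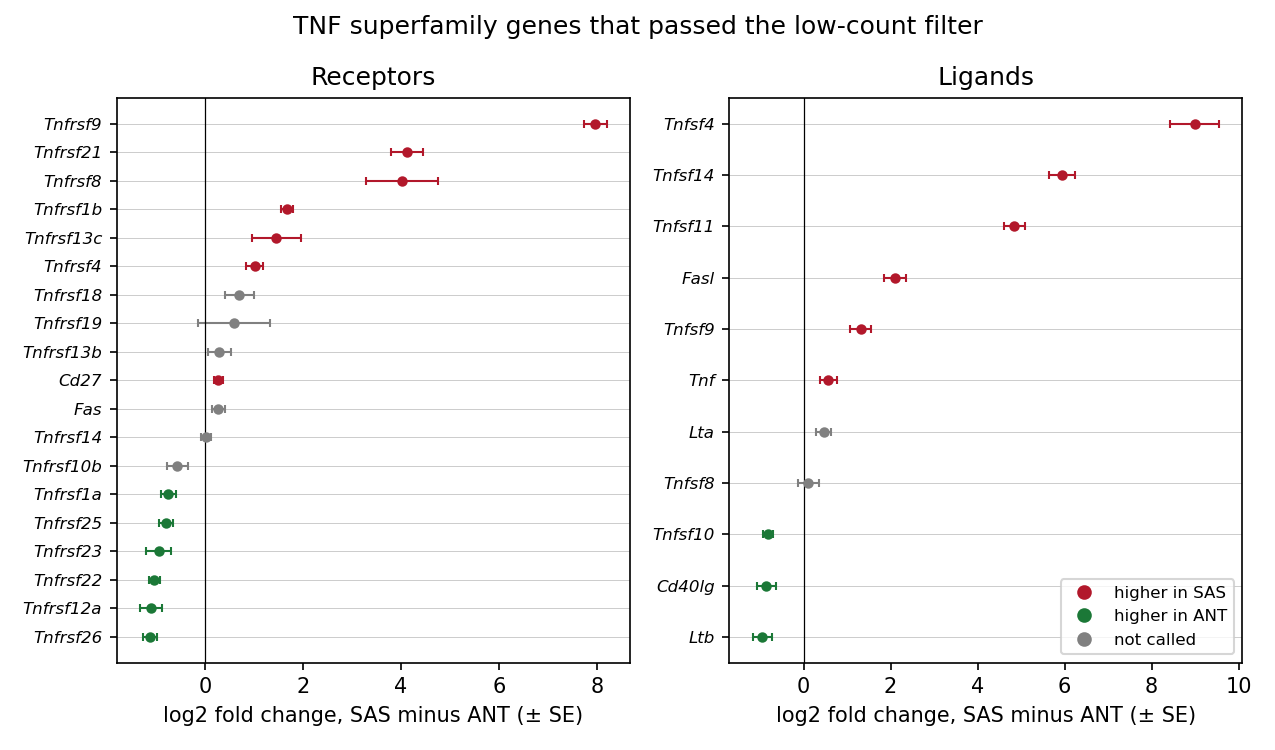
Log2 fold change, SAS minus ANT, with its standard error, for the 19 receptors and 11 ligands that passed the filter. Red points were called higher in SAS, green points higher in ANT and grey points were not called, and the points above 2 are Tnfrsf9, Tnfrsf21 and Tnfrsf8 among receptors and Tnfsf4, Tnfsf14, Tnfsf11 and Fasl among ligands.

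Of the 18 ligands, 11 passed the filter, and 9 of these were called, against 37.4% of all genes. Of the 9, Tnfsf4 and Tnfsf14 had passed through their SAS libraries alone. The 6 ligands higher in SAS were Tnfsf4, Tnfsf14, Tnfsf11, Fasl, Tnfsf9 and Tnf, and the 3 higher in ANT were Ltb, Cd40lg and Tnfsf10. Tnfsf4 (ENSMUSG00000026700.4, chr1:161395409-161418410, plus strand) encodes OX40 ligand, better known from antigen-presenting cells. Its counts in ANT were 5, 0, 3 and 3, or at most 0.172 CPM, while SAS stood at 61.3, 20.3, 57.0 and 67.1 CPM. SAS replicate 2 was the lowest of its clone and still over 100 times the highest ANT library (log2 SAS/ANT 8.99, SE 0.56, adjusted p 1.55e-06). The myeloid and dendritic cell markers were at 40.1 to 47.3 CPM in ANT and 41.3 to 77.2 CPM in SAS in sum, with 4 of 12 tested, 0 called and 0 at 0 counts. Most of that sum was Cst3, Cd74 and H2-Aa. Of the 4 tested, Cd74 (log2 SAS/ANT 1.19, adjusted p 0.0600) and Lyz2 (0.88, adjusted p 0.332) leaned to SAS. Cst3 (−0.17) and H2-Aa (−0.33) leaned to ANT. The scarce markers Cd14, Clec9a and Siglech had 1, 1 and 1 counts in ANT and 0, 1 and 0 in SAS. Other scarce markers of the list, which did not pass the filter, had more counts in SAS: Itgax had 2 counts in ANT and 49 in SAS, without overlap, Fcer1g had 15 and 38, and Csf1r had 9 and 68, of which 62 were in SAS replicate 2. The part of these markers in the Tnfsf4 difference was not tested.

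Tnfsf14 (ENSMUSG00000005824.6, chr17:57189492-57194177, minus strand), the gene of LIGHT, which binds HVEM and the lymphotoxin beta receptor, was at 0.448, 0.257, 0.505 and 0.414 CPM in ANT and 35.1, 19.4, 17.7 and 27.8 CPM in SAS. The difference was 60.8-fold (log2 SAS/ANT 5.93, SE 0.30, adjusted p 4.24e-07). Tnfsf11 (ENSMUSG00000022015.8, chr14:78277445-78308043, minus strand), which encodes RANK ligand, was at 1.55, 1.73, 0.865 and 0.793 CPM in ANT and 34.3, 34.0, 39.5 and 34.2 CPM in SAS. The SAS libraries were nearly level while ANT replicates 1 and 3 had about 2 times the level of replicates 4 and 5 (log2 SAS/ANT 4.84, SE 0.24, adjusted p 3.14e-07). Fasl (chr1:161780689-161788495, minus strand), the ligand of Fas, was at 10.3, 11.5, 7.03 and 5.34 CPM in ANT and 37.2, 27.2, 35.4 and 46.5 CPM in SAS, again without overlap (log2 SAS/ANT 2.10, SE 0.25, adjusted p 0.000101). Tnfsf9, the ligand of 4-1BB, was low in both, at 1.55, 1.36, 1.01 and 1.38 CPM in ANT and 3.11, 4.31, 2.83 and 2.92 CPM in SAS (log2 SAS/ANT 1.31, SE 0.24, adjusted p 0.00162). It overlaps the long noncoding RNA gene Gm11110 on the other strand, which had 340 counts in ANT and 670 in SAS.

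NK cells also express Fasl and Tnf, and the NK cell markers summed to 2.45 to 3.07 CPM in ANT and 137 to 171 CPM in SAS. The difference was mostly Eomes, at 0.679 and 155 CPM, with Klrb1c at 0.0345 and 0.792 CPM, while Gzma was higher in ANT, at 2.05 and 0.329 CPM. The other 3 of the 6, Ncr1, Klre1 and Klra8, were at 0 counts in every library, and the part of these markers in the ligand differences was not tested. The 10 CD4+ T cell markers summed to 7857 to 10629 CPM in ANT and 7539 to 10107 CPM in SAS, led by Trbc2, Lck and Cd4. All 10 were tested, 1 (Cd28) was higher in SAS and 2 (Trac and Trbc1) were called in the ANT direction. These cells carry a TCR beta transgene and a retroviral TCR alpha chain in place of the endogenous TCR alpha gene. The origin of the Trac, Trbc1 and Trbc2 reads was not examined. The CD8 markers Cd8a and Cd8b1 summed to 14.1 to 66.8 CPM in ANT and 1.99 to 4.49 CPM in SAS. Most of that was Cd8b1, at 36.2, 62.0, 22.5 and 13.6 CPM in ANT and 1.98, 3.16, 2.90 and 1.64 CPM in SAS. Cd8b1 was called as higher in ANT (log2 SAS/ANT −3.80, adjusted p 0.000109) and Cd8a was not called. Their part in the members' differences was not tested.

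Lymphotoxin and TNF genes, which lie side by side on chromosome 17 with 3.06 kb between Ltb and Tnf and 1.16 kb between Tnf and Lta, did not move together. Ltb, whose product anchors lymphotoxin at the membrane, was higher in ANT, at 245, 267, 451 and 415 CPM against 155, 178, 228 and 152 CPM in SAS (log2 SAS/ANT −0.95, SE 0.22, adjusted p 0.00599). The ANT libraries ranged widely but none fell into the SAS range. Tnf was at 18.0, 18.1, 11.9 and 14.0 CPM in ANT and 25.9, 17.3, 21.1 and 27.5 CPM in SAS, and Tnf in SAS replicate 2 lay below ANT replicates 1 and 3. It was called as higher in SAS (log2 SAS/ANT 0.57, SE 0.19, adjusted p 0.0354). Without ANT replicate 4 or 5, or SAS replicate 1, 3 or 6, the adjusted p of Tnf was 0.0549 to 0.104, and without ANT replicates 4 and 5 it was 0.190. Lta was at 15.1, 17.9, 14.1 and 14.0 CPM in ANT and 26.4, 17.1, 17.4 and 22.9 CPM in SAS, with SAS replicates 2 and 3 inside the ANT range. It just missed the call (log2 SAS/ANT 0.46, SE 0.17, adjusted p 0.0526), and passed in 3 of 8 fits that left out a library, ANT replicate 3, SAS replicate 2 or SAS replicate 3 (adjusted p 0.0444, 0.0334 and 0.0430). Lta was also called without ANT replicates 1 and 3 (0.0441), with scaling by library size only (0.0267) and by DESeq2 (0.0318).

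Cd40lg, the helper signal to B cells, was higher in ANT, at 89.6, 71.5, 137 and 158 CPM, than in SAS, at 56.7, 64.9, 68.7 and 60.4 CPM. The lowest ANT library, replicate 3, was just above the highest SAS library (log2 SAS/ANT −0.86, SE 0.22, adjusted p 0.0115). Tnfsf10, which encodes TRAIL, was nearly constant within ANT, at 38.9, 40.2, 39.1 and 39.7 CPM, and lower in SAS, at 22.2, 26.4, 19.6 and 22.0 CPM (log2 SAS/ANT −0.81, SE 0.11, adjusted p 0.000238). TRAIL, its receptor gene Tnfrsf10b and its decoys all had negative log2 fold changes, though Tnfrsf10b did not pass the test. Tnfsf8, the gene of CD30 ligand, was the ligand with the highest level in both clones and did not differ detectably. It was at 1267, 1113, 1003 and 760 CPM in ANT and 1419, 1039, 666 and 1356 CPM in SAS, with a log2 SAS/ANT ratio of 0.11 (SE 0.24, adjusted p 0.740). Its sign turned without ANT replicate 5 (−0.02), SAS replicate 1 (−0.02) or ANT replicates 4 and 5 (−0.11).

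The remaining 7 ligands did not pass the filter. Tnfsf15, the gene of TL1A, had 45 counts in ANT and 19 in SAS, a ratio of SAS to ANT of 0.393 (95% counting interval 0.217 to 0.685). Tnfsf13b, the gene of BAFF, had 36 and 53 counts, a ratio of 1.37 (0.880 to 2.15), but 29 of the 53 were in SAS replicate 2. Cd70, the ligand of CD27, had 0 counts in ANT and 2 in SAS, Tnfsf12 had 0 and 4, and Tnfsf13 had 1 and 2. All SAS counts of Cd70, Tnfsf12 and Tnfsf13 were in SAS replicate 2. Tnfsf18, the ligand of GITR, and the read-through gene Tnfsfm13 were at 0 in all 8 libraries, which allows a level of up to 0.0266 CPM in ANT and 0.0247 CPM in SAS over each clone's libraries together. Tnfsfm13 shares its exons with Tnfsf12 and Tnfsf13, and how reads shared by these 3 genes were counted is not known.

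**Figure D3:**
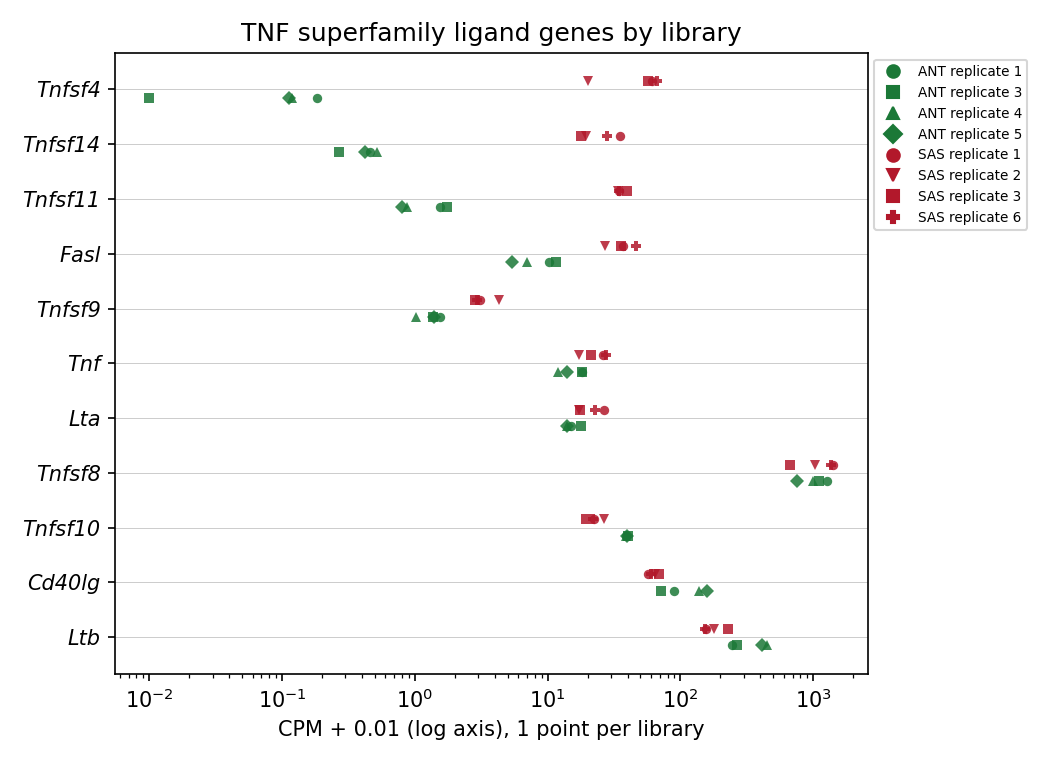
CPM of the 11 ligand genes that passed the filter, 1 point per library, ANT in green and SAS in red, on a log axis after adding 0.01, ordered by log2 fold change. Tnfsf4, Tnfsf14 and Tnfsf11 are far to the right in SAS, and Tnfsf8 lies between 666 and 1419 CPM in both clones.

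Levels were also set against exon length, as CPM per kilobase of exon (RPKM), so that genes can be ordered. Cd27 led the receptors in ANT at 123 RPKM, followed by Tnfrsf14 at 40.0, and then by Tnfrsf25, Tnfrsf18, Tnfrsf26, Tnfrsf1a and Fas at 18.6 to 21.9 RPKM, whose neighbours in that order differed by less than their SDs. In SAS, Cd27 and Tnfrsf9 both stood at 148 RPKM, ahead of Tnfrsf1b at 49.9, Tnfrsf14 at 40.4 and Tnfrsf18 at 33.8 RPKM, the last of these within its SD of Tnfrsf14. Tnfrsf9 made up 28.9% ± 3.33 of the summed receptor RPKM in SAS and 0.189% ± 0.0401 in ANT (SD, n = 4), and Cd27 29.3% ± 2.14 and 39.5% ± 2.10. The receptor sum itself was 310 ± 7.79 RPKM in ANT and 509 ± 47.2 RPKM in SAS.

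Among ligands, Tnfsf8 held 44.1% ± 11.2 of the summed RPKM in ANT and 50.3% ± 9.94 in SAS, and Ltb 36.0% ± 8.30 and 21.2% ± 7.11. Cd40lg came next in both clones, with 14.4% ± 4.37 in ANT and 8.94% ± 2.00 in SAS. Tnfsf4, which had 0.00820% of the ligand sum in ANT, reached 4.83% ± 1.88 in SAS. The ligand sum was 625 ± 57.2 RPKM in ANT and 574 ± 80.0 RPKM in SAS, a difference smaller than either SD.

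**Figure D4:**
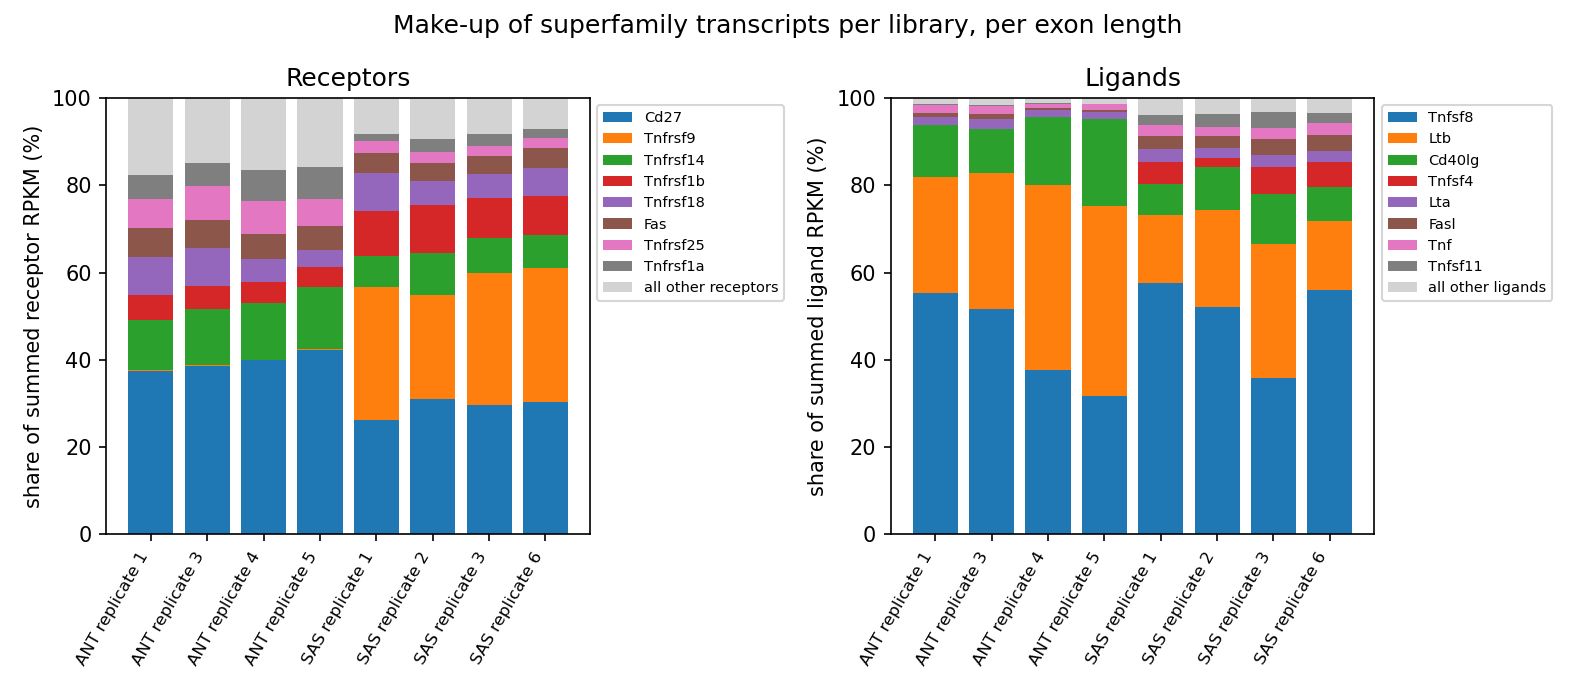
Share of the summed RPKM of the 25 receptors (left) and 18 ligands (right) held by the 8 leading genes of each kind and by all others, as 1 stacked bar per library. The Tnfrsf9 band is 23.9% to 30.8% in SAS libraries and at most 0.240% in ANT, while Tnfsf8 and Ltb together hold the larger part of the ligand sum in every library.

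Receptors and ligands that bind each other can be set side by side. For OX40 and its ligand, both genes were higher in SAS, Tnfrsf4 with a log2 SAS/ANT of 1.01 and Tnfsf4 with 8.99. The 4-1BB pair was also higher in SAS on both sides, Tnfrsf9 by 7.97 and Tnfsf9 by 1.31. For HVEM and LIGHT the ligand gene was higher in SAS (5.93) and the receptor gene Tnfrsf14 was not called (0.01). For CD30, the scarce receptor gene Tnfrsf8 was higher in SAS and its abundant ligand gene Tnfsf8 was not called. RANK ligand and CD40 ligand were measured in cells whose Tnfrsf11a and Cd40 counts were at most 21 and 2 per clone, and CD27 in cells with at most 2 counts of Cd70. Differences between the members of a pair were not tested.

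Members that are neighbours on a chromosome did not always share a direction. Besides the decoy cluster on chromosome 7, Tnfrsf1b and Tnfrsf8, 20.3 kb apart on chromosome 4, were both higher in SAS. Tnfsf9, Cd70 and Tnfsf14 follow each other on chromosome 17 with 38.2 kb and 39.7 kb between them, and the outer genes were higher in SAS while Cd70 was hardly detected. On chromosome 1, Tnfsf4 and the undetected Tnfsf18 lie 76.2 kb apart, and on chromosome 4 the abundant Tnfsf8 and the scarce Tnfsf15 lie 86.2 kb apart. In all of these pairs no other protein-coding gene of the count table starts between the neighbours.

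Within ANT, 19 of the 30 tested members separated replicates 1 and 3 from replicates 4 and 5. How many of all tested genes do so was not counted, so 19 cannot be set against the rest of the table. The libraries differed across the table, with a chi-square per degree of freedom of 9.94 between replicates 1 and 3. It was 20.2 between replicates 4 and 5 and 93.9 to 127 across these pairs. Replicates 1 and 3 were above for 10 members, among them Tnfrsf18 (1.91-fold between the pair means), Tnfrsf13b (1.90), Fasl (1.76) and Tnfsf11 (1.98). Replicates 4 and 5 were above for 9 members, among them Cd40lg (1.83-fold) and Ltb (1.70). The same libraries differ in other genes of the table, and the summed sort and dissociation stress genes, led by Fos, Junb and Jun in ANT, were at 2844, 2137, 2955 and 3131 CPM in ANT and at 1234, 2568, 2809 and 1381 CPM in SAS. All 9 had counts, 8 were tested, 1 was higher in SAS and 3 higher in ANT. Genes of this list split the ANT libraries in opposite directions, which the sum does not show. Hspa1a was at 102, 82.0, 0.505 and 7.51 CPM in ANT and Hspa1b at 274, 232, 4.22 and 33.4 CPM. Junb was at 595, 469, 1301 and 1193 CPM, and Dnajb1, at 286, 198, 186 and 222 CPM, did not split them. The part of these stress genes in the members' spread was not tested.

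Genes that act downstream of the receptors were taken from a list of 56, all of which were tested. In SAS 17 of them were higher and in ANT 10, and the other 29 were not called, so that 48.2% were called, against 37.4% of all genes. The median log2 SAS/ANT ratio of the list was 0.07. Among TRAF adaptors, which bind the tails of the receptors, Traf5 was higher in ANT, at 57.6, 57.6, 66.2 and 67.4 CPM against 17.5, 21.4, 21.5 and 14.2 CPM in SAS (log2 SAS/ANT −1.74, SE 0.15, adjusted p 9.13e-06). Traf2 and Traf3 were higher in SAS by less, at log2 fold changes of 0.40 (adjusted p 0.00658) and 0.52 (adjusted p 0.0170), and Traf3 was not called without SAS replicate 3 (adjusted p 0.0538) or without ANT replicates 1 and 3 (adjusted p 0.0704). Traf1, Traf4 and Traf6 were not called, at 0.07, 0.16 and 0.21.

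NF-kB subunits and inhibitors formed the group with the largest share of calls in this list: 8 of 10 were higher in SAS and 0 were lower, against 19.8% and 17.7% of all genes. Rel, the c-Rel subunit of lymphocytes, was at 90.5, 93.2, 86.2 and 91.0 CPM in ANT and 310, 313, 324 and 262 CPM in SAS (log2 SAS/ANT 1.74, SE 0.10, adjusted p 7.83e-07). Nfkbid, a nuclear member of the inhibitor family, had a log2 SAS/ANT ratio of 1.86 (adjusted p 2.12e-06), and Nfkb1, the gene of p50 and its precursor, of 1.24 (adjusted p 0.00139). Rela and Nfkbia, named after their values were seen, were the 2 members not called, at 0.09 and 0.14.

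The other groups were mixed. Of 9 genes of death-domain adaptors and the death complex, 3 were higher in ANT, among them the initiator caspase gene Casp8 (log2 SAS/ANT −0.87, adjusted p 0.000307) and the adaptor kinase gene Ripk1 (−0.52, adjusted p 0.00133), and 1, the necroptosis kinase gene Ripk3, was higher in SAS (0.79, adjusted p 0.00107). Of 14 genes of ubiquitin ligases, deubiquitinases and their partner proteins, 3 were higher in each clone. Tnip2 and Tnip3, partners of the deubiquitinase A20, were higher in SAS (1.07, adjusted p 1.99e-05, and 5.87, adjusted p 0.000136), and Cyld, a deubiquitinase, was higher in ANT (−0.45, adjusted p 0.00279). Tnip3 had 6 counts in ANT, all in replicate 1, and passed the filter through its SAS libraries alone, which favoured a difference. Its log2 SAS/ANT ratio was 9.62 without that library and 4.91 without ANT replicates 4 and 5. Of 12 kinases and kinase-complex genes, 2 were higher in each clone, with Map3k8 (TPL2) at 1.63 (adjusted p 8.96e-05), Ikbkb (IKK beta) at −0.39 (adjusted p 0.00711) and Tab1 at −0.44 (adjusted p 0.0305). The call of Tab1 was lost in 5 of 8 fits that left out a library (ANT replicates 1 or 3, or SAS replicates 1, 3 or 6), with adjusted p of 0.0602 to 0.0867. The sheddase genes Adam10 and Adam17 were not called, at 0.25 and 0.06, but Adam10 was called without ANT replicates 4 and 5 (0.52, adjusted p 0.00165).

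**Figure D5:**
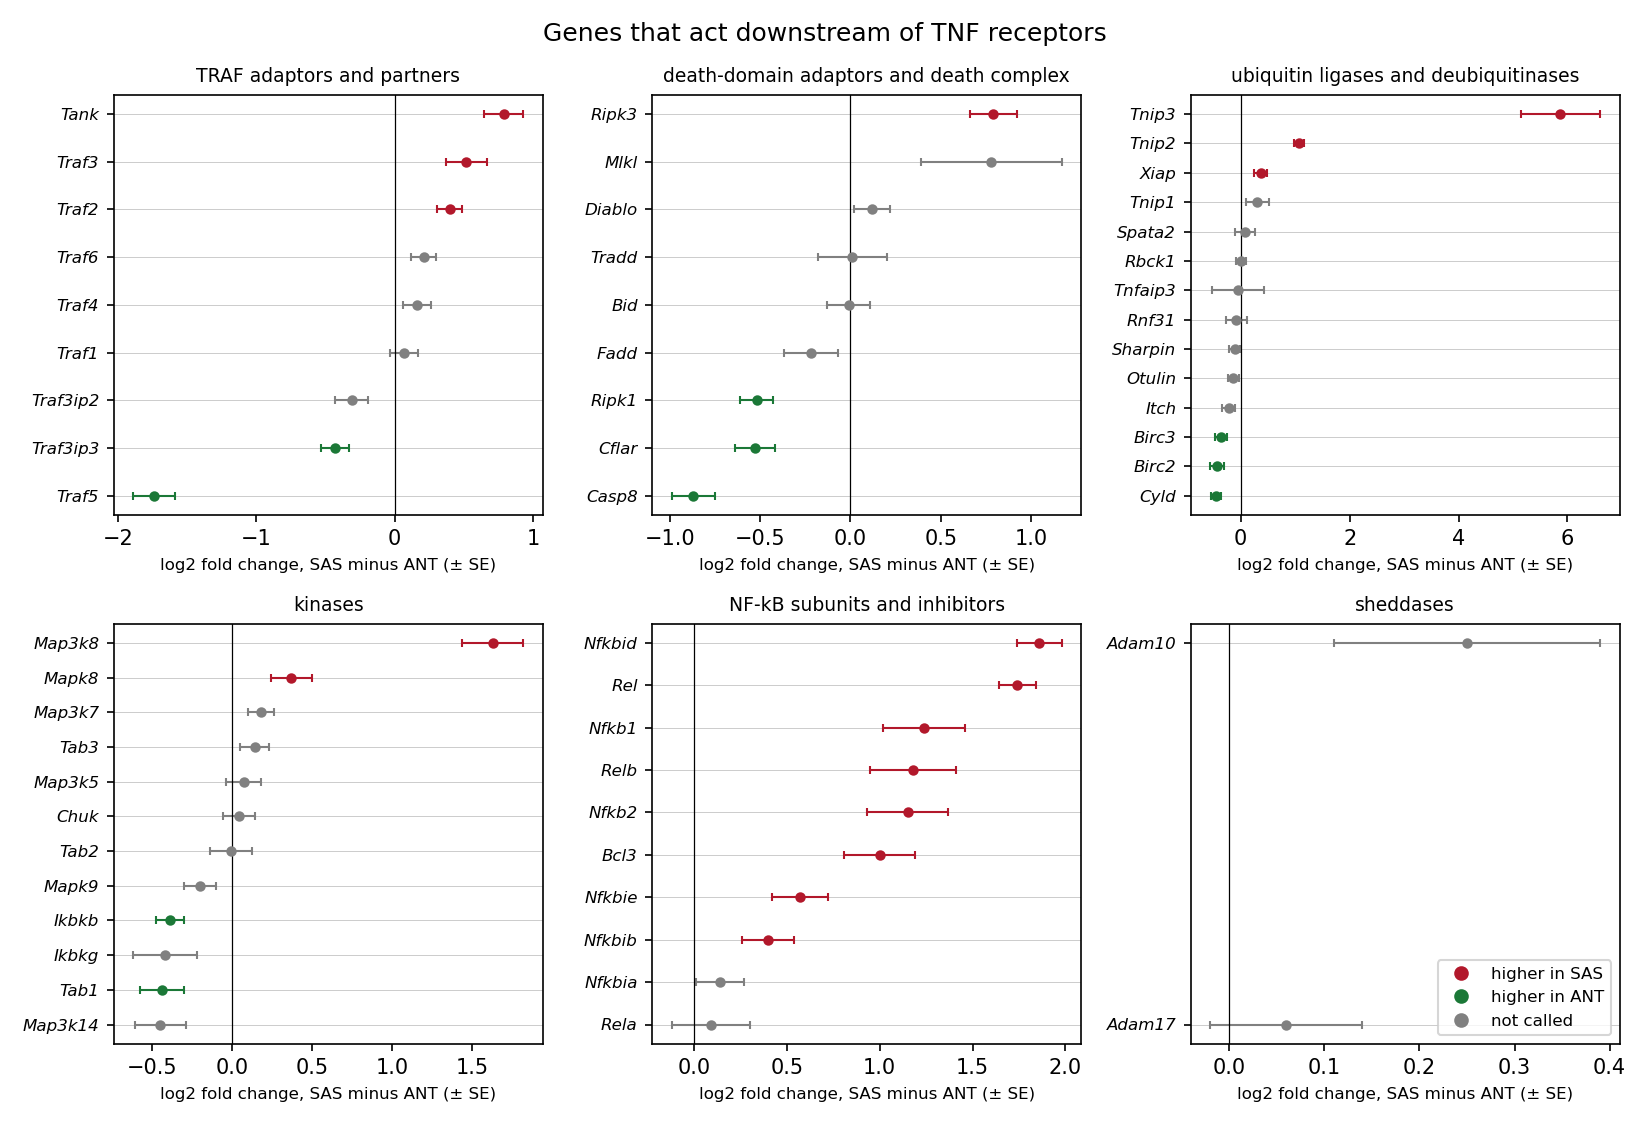
Log2 fold change, SAS minus ANT, with its standard error, for the 56 listed genes downstream of TNF receptors, in 6 panels by role with their own horizontal scales. In the NF-kB panel 8 of 10 points are red (higher in SAS) and lie to the right of 0, and Traf5 is the leftmost point of the TRAF panel at −1.74.

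The 30 tested members had groups that did not overlap for 20 genes, against 38.1% of all genes tested. Among the 20 were Tnfrsf21, Tnfrsf8, Tnfsf14 and Tnfsf4, which had passed the filter through their SAS libraries alone. Of the 24 members that reached the filter in both clones, 16 did not overlap. When a fold change of more than 1.5 was required, 5 receptors and 5 ligands remained called as higher in SAS, the same SAS-only genes among them. On the ANT side 3 receptors and 0 ligands remained called. Cd40lg, Ltb and Tnfsf10 each lost their call there, with adjusted p of 0.198, 0.102 and 0.0586, as did the receptor genes Tnfrsf1a, Tnfrsf25 and Tnfrsf23 (0.251, 0.112 and 0.164). On the SAS side Cd27, Tnfrsf13c and Tnf lost theirs. The library totals behind these values were 27600959 to 31810799 counts.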

How the data were processed

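The series holds RNA-seq of sorted CD4+ T cells from 2 retrogenic clones, 4 libraries each, with strand-specific TruSeq mRNA libraries per the labels' protocols. The authors deposited whole-number counts per gene for 39056 Ensembl genes, made with STAR on mm10 and featureCounts per the submitters' processing notes. The sources used here do not give versions, annotation, strand setting or handling of shared reads. IDs were matched without version to GENCODE M21 (38872 matched, 184 did not). Gene IDs are given as deposited and coordinates are those of M21.

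The test was edgeR 4.0.16 (R 4.3.3) with its default low-count filter (about 10 counts in each of 4 libraries, 12619 genes kept), TMM scaling, robust quasi-likelihood test, no covariates, Benjamini-Hochberg adjustment over all genes tested, calls at an adjusted p under 0.05. CPM use TMM-scaled library sizes, and RPKM divide CPM by the union of exons. The SE is the absolute log2 fold change over the square root of F. Library totals were 27600959 to 31810799 counts. No libraries of a clone agreed within sampling noise (chi-square per degree of freedom at least 9.94). Alternatives were other scalings and filters, DESeq2 1.42.0, limma-voom (limma 3.58.1), a replicate block, stricter thresholds and left-out libraries. The code was tested on simulated data. The members, the lists of signalling genes and cell markers, and the rule for the genes named were chosen with earlier results of these data known. The rule names every member, all TRAF genes, the 3 signalling genes per other role with the smallest p, and the 3 most abundant genes of a marker list; other markers were named after their values were seen.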

Additional observations from a re-analysis of the deposited data

Results flagged for a closer look

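In 60 groups of 4 libraries (30 members in each clone), 3 held a library whose gap to the nearest other took up nearly all of the group's range (Dixon's 95% criterion), and chance alone marks about 1 group in 20. Tnfrsf26 was at 55.4 CPM in ANT replicate 3 and at 65.9 to 67.5 CPM in the other ANT libraries. Tnfrsf8 was at 0.103 CPM in ANT replicate 1, from 3 counts, and at 0 in the other ANT libraries. Tnfsf11 was at 39.5 CPM in SAS replicate 3 and at 34.0 to 34.3 CPM in the other SAS libraries.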

How the results depend on the processing

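Over the alternatives, 13 of the 30 tested members kept their direction and their side of the threshold in every fit in which they were tested: Tnfrsf12a, Tnfrsf1b, Tnfrsf21, Tnfrsf22, Tnfrsf26, Tnfrsf4, Tnfrsf8, Tnfrsf9, Fasl, Tnfsf11, Tnfsf14, Tnfsf4 and Tnfsf9. Among the 13, Tnfrsf21, Tnfrsf8, Tnfsf14 and Tnfsf4 had passed the filter through their SAS libraries alone. Most of the alternatives used the same filter rule, which favours such genes. Tnfrsf8, Tnfrsf13c and Tnfrsf19 did not pass the filter of 1 CPM in 4 libraries and have no value there. At an adjusted p under 0.01, 3044 of all genes were called in place of 4725. Against a fold change of 1.5 there were 1836 calls, with 3 receptors and 0 ligands higher in ANT, and 8 signalling genes on the SAS side and 2 on the ANT side. Leaving out 1 library gave 3964 to 4700 genes, 5 to 6 receptors higher in SAS and 6 to 7 in ANT, 5 to 7 and 3 to 3 ligands, and 13 to 16 and 7 to 11 signalling genes. The sign of genes that were not called turned: Tnfrsf14 to −0.02 with no low-count filter and −0.06 without ANT replicates 1 and 3 (−0.05 to 0.06 without single libraries), Tnfrsf13b to −0.13 and Tnfsf8 to −0.11 without ANT replicates 4 and 5 (Tnfsf8 −0.02 to 0.30 without single libraries), and Tnfrsf19 to −0.29 and the signalling gene Traf1 to −0.02 without ANT replicates 1 and 3. The cause was not tested. Replicate numbers 1 and 3 occur in both clones but did not pair the libraries (correlation of deviations 0.47 for number 1 and −0.22 for number 3). The other numbers occur in 1 clone only. With the number as a replicate block, the clone difference therefore rests on replicates 1 and 3 of each clone. Such a fit leaves little residual spread and is not an alternative on all 8 libraries. In it, 5798 genes were called, 7 receptors and 5 ligands on the SAS side and 5 and 3 on the ANT side. In that block fit Cd27, Tnfrsf13c, Tnfrsf23 and Tnf were not called (adjusted p 0.0958, 0.0860, 0.293 and 0.0780), Tnfrsf18, Tnfrsf19 and the signalling gene Adam10 were (0.0216, 0.000629 and 9.88e-05), and Tnfrsf13b and Tnfsf8 turned to −0.06 and −0.29. Depth limits Tnfrsf8, Tnfrsf13c, Tnfrsf19 and the 13 members below the filter, which held at most 53 counts per clone.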

Other observations

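Relt, a receptor of the superfamily outside the naming rule, had 7223 counts over the ANT libraries and 4914 over SAS ones (log2 SAS/ANT −0.66, adjusted p 0.000389 in edgeR's quasi-likelihood test). Edar, Eda2r and the ligand gene Eda were at 0 counts in every library of both clones. The delta chain constant gene Trdc, one of 3 gamma delta T cell markers, averaged 457 CPM in ANT against 396 CPM in SAS, while Sox13 and Tcrg-C1 were at 0.0873 and 0.292 CPM in ANT and 0.664 and 0.294 CPM in SAS. That list summed to 415 to 550 CPM in ANT and 356 to 436 CPM in SAS. Plasma cell markers other than Tnfrsf17, led by Jchain, summed to 3.41 to 8.79 CPM in ANT and 3.73 to 14.8 CPM in SAS. Erythroid and platelet markers, led by Hbb-bs, Hba-a1 and Alas2, summed to 0.690 to 10.8 CPM in ANT and 0.835 to 4.94 CPM in SAS.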
